A study of Mus musculus with 6 samples.

Results

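Interleukins are secreted proteins through which blood and tissue cells signal to each other, and each acts by bringing together the chains of a receptor on the target cell. Most receptor chains with this name pass the signal on through JAK kinases and STAT transcription factors, while the IL-1 and IL-17 receptor families act through adaptor proteins that lead to NF-kB. In the bone marrow, interleukin receptors let granulocyte-monocyte progenitors, the precursors of neutrophils and monocytes, respond to infection and inflammation, and several interleukin genes are themselves switched on in the monocytes and dendritic cells that these progenitors form.

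The set described here is every protein-coding mouse gene whose symbol is Il directly followed by a digit: 83 genes among 21887 protein-coding genes of the mm10 annotation. By function they are 41 receptor chains and related receptors, 37 cytokines, and 5 genes that are neither (Il18bp, a binding protein; Il1rn and Il1f5, receptor antagonists; Il4i1 and Il4i1b, an amino acid oxidase). Accessible regions (peaks) were counted as theirs when they overlapped the gene body, or lay within 50 kb with that gene as the nearest protein-coding gene. This gave 740 of 182166 peaks, at 77 of the 83 genes, and 698 of them were strong enough to test. No peak was assigned to Il11ra2, Il13ra2, Il17f, Il25, Il1f5 or Il1f6. Assignment is by position alone and does not show which gene a peak acts on, and accessibility is not expression.

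The data are ATAC-seq libraries, in which a transposase cuts and tags open DNA, from progenitors sorted by FACS from the marrow of untreated C57BL/6 mice. Of the 6 libraries, 3 are GFI1-KD (labelled GFI1 KD /KD), from mice whose human GFI1 is expressed at a level given as 10 to 20%, and are called KD1 to KD3. The other 3 are GFI1-KI (GFI1 KI /KI), from mice in which human GFI1 replaces the mouse gene, and are called KI1 to KI3. The series title calls this level wildtype. Both genotypes express human GFI1 in place of mouse Gfi1, a zinc-finger repressor of blood progenitors. The labels do not say whether the libraries come from separate animals, so the p-values measure the spread between libraries, which may be technical. Ages are not stated.

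Reads in peaks numbered 16022763 to 19857646 in the GFI1-KD libraries and 19408373 to 27741446 in the GFI1-KI libraries. Values are normalized reads per peak, and a floor of 3 reads corresponds to 2.27 to 3.70 of them. Peaks of 11 progenitor marker genes were called 7 times higher and 8 times lower of 135 tested (11.1%, beside 10.5% of all tested peaks). Their gene-end sums were 9044 to 9508 normalized reads in GFI1-KD and 9293 to 9758 in GFI1-KI. Gene-end peaks are those assigned to a gene that lie within 1 kb of an end of any protein-coding gene. A peak at the end of a neighbouring gene can therefore be part of a sum. Of the progenitor genes, Mpo, which encodes myeloperoxidase, held 1619 to 1696 normalized reads in such peaks in GFI1-KD and 1583 to 1728 in GFI1-KI. Ctsg, the granule protease cathepsin G, held 1341 to 1658 in GFI1-KD and 1219 to 1475 in GFI1-KI. The sums of Mpo, Ctsg, Elane, Prtn3, Spi1, Csf1r, Csf3r and Cd34 overlapped between the genotypes. Kit, the stem cell factor receptor, held 1039 to 1182 in GFI1-KD and 1388 to 1439 in GFI1-KI, and Cebpa, a myeloid transcription factor, 1591 to 1674 in GFI1-KD and 1764 to 1813 in GFI1-KI, both without overlap. Of the T cell receptor complex genes, Cd3e held 12.8 to 31.0 in GFI1-KD and 25.9 to 39.3 in GFI1-KI, and Cd3d 838 to 1003 in GFI1-KD and 1013 to 1023 in GFI1-KI. No peak was assigned to Fcgr3, which encodes an Fc receptor found on these progenitors.

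The 250 bases before a listed gene start are shown for the members whose changed peak overlapped that window, so that the DNA at and beside those peaks can be read. The sequences are RefSeq's, from GRCm38.p6 (the build also called mm10), printed 5′ to 3′ on the gene's strand. Capitals mark AATC or its complement GATT, the core letters of a GFI1 site, and AGATAA or TTATCT, letters bound by GATA factors. Il1rl1, the receptor of IL-33, has an internal start on chromosome 1 (chr1:40429320-40429569, plus strand), and the peak there was lower in GFI1-KD. Il1f9, which encodes a cytokine of the IL-36 group, is on chromosome 2 (chr2:24186226-24186475, plus strand), and its peak was higher. Il16, a chemoattractant cytokine, has an internal start on chromosome 7 (chr7:83655496-83655745, minus strand), and Il18, an IL-1 family cytokine, lies on chromosome 9 (chr9:50554450-50554699, plus strand). Both of these peaks were higher in GFI1-KD.
Il1rl1: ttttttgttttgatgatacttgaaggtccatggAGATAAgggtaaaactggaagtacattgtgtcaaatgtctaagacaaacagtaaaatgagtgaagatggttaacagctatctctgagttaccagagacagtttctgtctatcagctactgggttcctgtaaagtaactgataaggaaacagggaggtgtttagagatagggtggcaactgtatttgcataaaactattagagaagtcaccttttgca
Il1f9: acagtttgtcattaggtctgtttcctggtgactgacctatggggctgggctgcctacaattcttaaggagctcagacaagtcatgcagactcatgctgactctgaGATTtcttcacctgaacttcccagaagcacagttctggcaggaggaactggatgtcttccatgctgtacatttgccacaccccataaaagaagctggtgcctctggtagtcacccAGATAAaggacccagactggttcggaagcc
Il16: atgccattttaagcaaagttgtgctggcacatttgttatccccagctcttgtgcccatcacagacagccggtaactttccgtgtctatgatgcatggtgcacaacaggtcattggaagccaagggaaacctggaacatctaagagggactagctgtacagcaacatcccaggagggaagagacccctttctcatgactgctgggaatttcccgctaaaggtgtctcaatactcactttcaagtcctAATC
Il18: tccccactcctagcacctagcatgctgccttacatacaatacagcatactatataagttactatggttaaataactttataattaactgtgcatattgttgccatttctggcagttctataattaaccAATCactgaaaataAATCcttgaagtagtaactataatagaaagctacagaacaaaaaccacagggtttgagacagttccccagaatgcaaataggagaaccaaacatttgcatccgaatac
The Il1rl1 window held no AATC on either strand and 1 AGATAA. The Il1f9 window held 1 of each, the Il16 window 1 AATC at its last bases, and the Il18 window 2 AATC, of which 1 was part of the longer AATCAC. The peak covered 230 of the 250 bases at Il1rl1, 220 at Il1f9, 203 at Il16 and 94 at Il18. Both AATC of the Il18 window and the AGATAA of the Il1f9 window lay outside the peak, and the other marked letters lay inside it. Of all 32851 listed promoter windows, 69.0% held AATC on either strand, 9.14% AATCAC and 9.99% AGATAA. Of the 81 windows listed for 66 of the interleukin-named genes, 62 (76.5%) held AATC, 11 (13.6%) AATCAC and 13 (16.0%) AGATAA. These letter matches describe the windows and are not evidence of binding.

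Among the 698 tested peaks, 66 were higher and 34 lower in GFI1-KD than in GFI1-KI, and 598 did not pass the test. A peak was called when limma, fitted to log2(value + 1), gave it an adjusted p below 0.05, with the Benjamini-Hochberg adjustment made over all 170733 tested peaks. The share called was 14.3%, beside 10.5% of all tested peaks, of which 4.99% were higher and 5.48% lower. The receptors had 57 called of 415 (13.7%), 38 higher and 19 lower, and the cytokines 42 of 258 (16.3%), 28 higher and 14 lower. In each class 66.7% of the called peaks were higher, beside 47.7% of the called peaks genome-wide. With median-of-ratios scaling these shares were 73.6% of all called interleukin peaks and 60.1% genome-wide. The median log2 fold change, GFI1-KD over GFI1-KI, was 0.04 over the receptor peaks, 0.05 over the cytokine peaks and -0.05 over all tested peaks. The values of the genotypes did not overlap in 200 of the 698 peaks (28.7%), beside 28.8% of all tested peaks. Of the 100 called interleukin peaks 91 did not overlap, beside 16971 of the 17872 peaks called genome-wide. A lack of overlap was also a condition by which part of the peaks named below were picked. DESeq2 on the recovered reads called 53 peaks higher and 13 lower (receptors 28 and 4, cytokines 25 and 9). With DESeq2 the peaks called higher among all tested peaks numbered 7177, and the peaks called lower among all tested peaks numbered 3595. The counts depended on single libraries: 27 peaks were higher and 10 lower without KI2, 22 and 13 without KI3, 31 and 24 without KD3, and 48 and 22 without KD2.

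**Figure D1:**
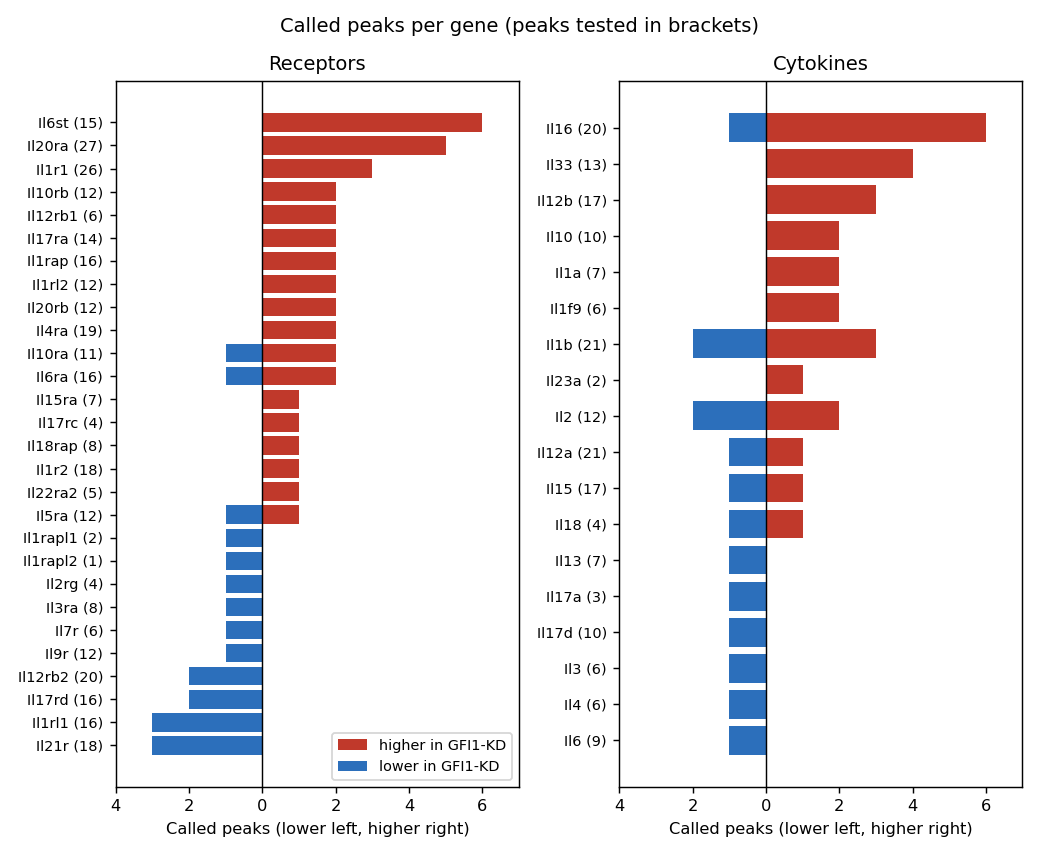
Number of called peaks for each receptor gene (left) and cytokine gene (right) with at least 1 called peak, with higher peaks in GFI1-KD to the right of 0 and lower peaks to the left; the number of tested peaks is in brackets. Il6st and Il16 have 6 higher peaks each, and Il1rl1 and Il21r have 3 lower peaks each.

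Most receptor genes with several called peaks had them in 1 direction. Of 39 receptor genes with a tested peak, 15 had only higher calls, 10 only lower, 3 both and 11 none. Of the 17 with at least 2 called peaks, 10 had only higher ones, 4 only lower ones and 3 both. The matching share over all genes was not counted, so this is not set against a background. Of 34 cytokine genes, 6 had only higher calls, 6 only lower, 6 both and 16 none. Of the 11 cytokine genes with at least 2 called peaks, 5 had only higher ones, 0 only lower ones and 6 both. Whether the classes differ in this was not tested.

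Il6st, which encodes gp130, the shared signalling chain of the IL-6 receptor family, had the most called receptor peaks: 6 of 15, all higher in GFI1-KD. The peak 20.6 kb outside the gene (chr13:112443174-112443510) held 295, 296 and 314 normalized reads in KD1 to KD3, against 229.7, 172 and 174 in KI1 to KI3. All GFI1-KD values lay above all GFI1-KI values, and the log2 fold change was 0.66 ± 0.12 (SE; limma adjusted p = 0.00128). A peak in the gene body (chr13:112473831-112474233) held 77.0, 80.2 and 73.2 in GFI1-KD, against 42.8, 42.9 and 34.0 in GFI1-KI, also without overlap (log2 fold change 0.93 ± 0.18, limma adjusted p = 0.00209). Both calls held without each library in turn. The strongest peak, 23.6 kb outside the gene, had 909, 912 and 898 in GFI1-KD and 848, 750.3 and 679 in GFI1-KI, a small difference (0.26 ± 0.08, limma adjusted p = 0.0326). That call was lost without KD2 (0.0607), KD3 (0.09), KI2 (0.127) or KI3 (0.256). The other 3 called peaks rose by 0.42 to 0.72 on the log2 scale, and each lost its call without KI3 (limma adjusted p = 0.109 to 0.197). The neighbourhood moved in the same direction: of 144 other tested peaks within 500 kb of Il6st, 18 were higher and 3 lower.

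Il6ra, the ligand-binding chain that works with gp130, was not uniform. Its strongest peak, in the gene body, held 1142, 1114 and 1205 in GFI1-KD and 1197, 1065 and 1016 in GFI1-KI and was not called (limma adjusted p = 0.489). Of 16 tested peaks, 2 were higher and 1 lower, with log2 fold changes of 0.49, 0.59 and -0.62. All 3 calls were lost without KI2 (limma adjusted p = 0.174, 0.0851 and 0.0857) and in further single-library tests. Il27ra, Il11ra1 and Il31ra, the other receptor genes of this family with tested peaks, had 0 of 2, 0 of 2 and 0 of 10 called.

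The receptors of the IL-10 family had 12 peaks higher and 1 lower of 69 tested (18.8% called, beside 10.5% of all tested peaks). They bind IL-10, an anti-inflammatory cytokine, and its relatives such as IL-20, which acts on epithelia. Il20ra had 5 of 27 peaks higher, and only those described next held their calls without each library in turn. The others lost theirs without KI2 (limma adjusted p = 0.0599 to 0.0915) or KI3 (0.058 to 0.105), and in further single-library tests. Of 162 other tested peaks within 500 kb of Il20ra, 10 were higher and 13 lower. The peak 23.6 kb outside the gene (chr10:19687589-19688104) held 219, 426 and 426 in KD1 to KD3, against 190.3, 139 and 137 in KI1 to KI3. KD1 lay close to KI1, far from the other GFI1-KD libraries. The log2 fold change was 1.14 ± 0.18 (limma adjusted p = 0.000446), a call that robust variance estimation did not make. A second distal peak (chr10:19680286-19680850) held 131, 167 and 225 in GFI1-KD and 82.2, 58.7 and 92.9 in GFI1-KI, with no overlap (1.14 ± 0.19, limma adjusted p = 0.000516). These peaks lie between Il20ra and Il22ra2, whose only called peak was also higher (0.53 ± 0.16, limma adjusted p = 0.0344; lost without KD2, 0.0971, KD3, 0.131, KI2, 0.0951, or KI3, 0.164).

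Il20rb, the partner chain of Il20ra, had the smallest adjusted p of the receptors. The peak 22.2 kb outside the gene (chr9:100435133-100435536) held 129, 82.7 and 76.5 in GFI1-KD, against 40.5, 29.8 and 32.5 in GFI1-KI. The lowest GFI1-KD value was well above the highest GFI1-KI value, and the log2 fold change was 1.43 ± 0.21 (limma adjusted p = 0.000171), held without each library. Il10rb, the chain shared by the IL-10 and IL-22 receptors, had 2 of 12 peaks higher. The stronger change was in the gene body, with 52.4, 44.4 and 46.6 in GFI1-KD and 25.9, 22.8 and 25.7 in GFI1-KI (0.92 ± 0.21, limma adjusted p = 0.00688). Il10ra, the chain that binds IL-10, went both ways. Its strongest peak, outside the gene, was slightly lower, with 780, 663 and 738 in GFI1-KD and 861, 902 and 865 in GFI1-KI (-0.27 ± 0.07, limma adjusted p = 0.0213), while a gene-end peak was higher (0.58 ± 0.15, limma adjusted p = 0.0193). These calls were lost without KD2 (0.0633 and 0.0606), KD3 (0.0591 and 0.0817), KI2 (0.128 and 0.071) or KI3 (0.0875 and 0.107). Another Il10ra peak, 21.4 kb outside the gene, was higher (0.68 ± 0.21, limma adjusted p = 0.0441), and was lost without KD1 (0.124), KD3 (0.14), KI2 (0.169) or KI3 (0.158).

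**Figure D2:**
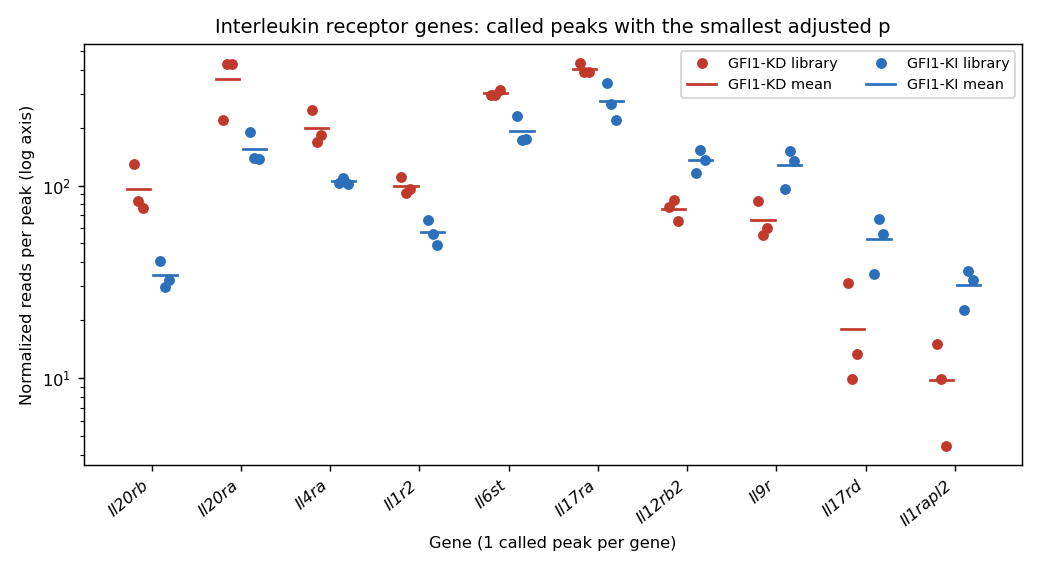
Normalized reads (log axis) in each GFI1-KD library (red, left of each pair) and GFI1-KI library (blue, right), with horizontal lines at the means of 3 libraries, for the called peak with the smallest adjusted p of 10 receptor genes. GFI1-KD values are higher for Il20rb to Il17ra and lower for Il12rb2 to Il1rapl2. Only called peaks whose genotypes do not overlap were eligible, so the lack of overlap here follows from the choice.

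On chromosome 1, 6 receptor genes of the IL-1 family stand in a row, and the few called peaks differed in direction along it. Of 91 tested peaks of the cluster, 7 were higher and 3 lower (11% called, near the 10.5% of all tested peaks). The higher ones belonged to Il1r2, Il1r1, Il1rl2 and Il18rap, and the 3 lower ones all to Il1rl1. Il18r1 had 0 of 11 called. Il1r2, a decoy receptor that binds IL-1 without signalling, had 1 of 18 tested peaks called. This gene-body peak (chr1:40091534-40091919) held 111, 91.3 and 95.4 in GFI1-KD and 66.4, 56.1 and 49.1 in GFI1-KI. The values did not overlap, and the change was 0.79 ± 0.17 (limma adjusted p = 0.00454).

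Il1r1, the signalling receptor of IL-1, had 3 of 26 peaks higher, all in the gene body. The one with the smallest adjusted p (chr1:40294789-40295209) held 379, 385 and 398 in GFI1-KD, against 339, 235 and 247 in GFI1-KI (0.52 ± 0.12, limma adjusted p = 0.00681). KI1 was nearest to the GFI1-KD values, and the call was lost without KI2 (0.0659) or KI3 (0.0515). The other 2 calls were lost without KD3 (0.0706 and 0.133), KI2 (0.084 and 0.0546) or KI3 (0.08 and 0.143), and the second of them also without KD2 (0.0662) or KI1 (0.0633). The strongest Il1r1 peak had 575, 607 and 599 in GFI1-KD and 646, 629 and 652 in GFI1-KI and was not called (limma adjusted p = 0.359). Il1rap, the co-receptor shared by IL-1, IL-33 and IL-36, had 2 of 16 peaks higher, both in the gene body, by 0.64 ± 0.16 and 0.55 ± 0.14 (limma adjusted p = 0.0107 and 0.0166). Both were lost without KI2 (0.0905 and 0.123), KI3 (0.0624 and 0.0983) or KD3 (0.0504 and 0.0831), and the second also without KD2 (0.063). Its promoter peak, with 656, 615 and 649.7 in GFI1-KD and 749, 680.2 and 721 in GFI1-KI, was not called (limma adjusted p = 0.175).

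Il1rl1, the IL-33 receptor of mast cells, basophils and type 2 lymphocytes, was the only gene of the cluster with lower calls. Its tested peaks as a whole were not lower: 9 of 16 had a positive log2 fold change, and the median was 0.05. The Il1rl1 peak at an internal start, whose sequence is given above (chr1:40429335-40429564), held 13.9, 9.87 and 11.1 in GFI1-KD, against 31.5, 28.9 and 24.2 in GFI1-KI. All values were low and did not overlap, and the change was -1.21 ± 0.28 (limma adjusted p = 0.00796; 0.0505 without KI2). A second peak near the same start fell by 0.79 (limma adjusted p = 0.0176; lost without KI2, 0.0842, or KI3, 0.091), and a weak gene-body peak by 1.62 (limma adjusted p = 0.0103; lost without KI2, 0.0595, or KI3, 0.103). DESeq2 called none of these 3 peaks. Among the 16 tested Il1rl1 peaks the strongest, with 358, 375 and 361 in GFI1-KD and 404, 338 and 336 in GFI1-KI, was not called (limma adjusted p = 0.898). Il1rapl2, a neuronal relative of the co-receptor on the X chromosome, had its only tested peak lower, with 15.0, 9.87 and 4.44 in GFI1-KD and 22.5, 35.9 and 32.5 in GFI1-KI (-1.65 ± 0.36, limma adjusted p = 0.00479).

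**Figure D3:**
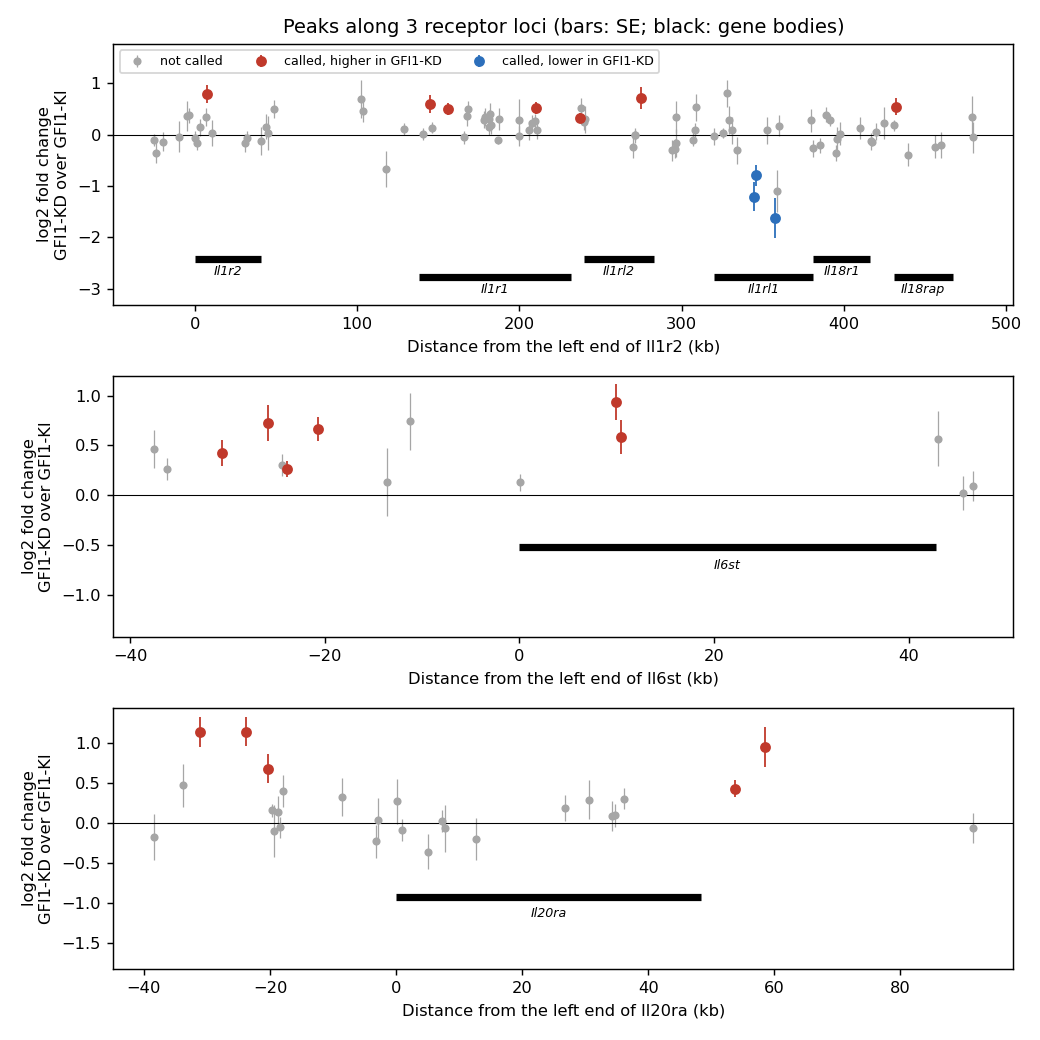
Log2 fold change of GFI1-KD over GFI1-KI (points, bars are SE) for tested peaks along the IL-1 receptor cluster, Il6st and Il20ra, against distance in kb from the left end of the first gene; black bars are gene bodies. Called lower peaks (blue) lie in Il1rl1 only within these 3 loci, and the 6 higher peaks of Il6st (red) lie on the side before the gene's left end and in its body.

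The receptors of the common gamma chain group, which binds IL-2, IL-4, IL-7, IL-9, IL-15 and IL-21, had 3 peaks higher and 6 lower of 98 tested (9.18% called, under the 10.5% of all tested peaks). Counted with them was Il13ra1, an IL-13 receptor chain outside that list, with 0 of 7 called. Il4ra, the IL-4 and IL-13 receptor chain, gave 2 of the 3 higher ones. The peak 12.6 kb outside the gene (chr7:125539240-125539677) held 246, 169 and 184 in GFI1-KD, against 104, 109.6 and 102 in GFI1-KI. The GFI1-KI libraries were close together and below every GFI1-KD library (0.90 ± 0.14, limma adjusted p = 0.00042). The other Il4ra peak rose by 0.93 ± 0.22 (limma adjusted p = 0.00802; lost without KD3, 0.0513, or KI3, 0.053). The strongest Il4ra peak, in the gene body, was not called, with 642, 595 and 656 in GFI1-KD and 604, 629 and 557 in GFI1-KI (limma adjusted p = 0.565).

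The 6 lower peaks of this group were at Il21r, Il9r, Il7r and Il2rg. Il21r, the IL-21 receptor chain, adjoins Il4ra on chromosome 7 and had 3 of 18 peaks lower, against the direction of its neighbour. The strongest of the 3, in the gene body, held 462, 521 and 503 in GFI1-KD and 558, 645 and 629.8 in GFI1-KI (-0.30 ± 0.09, limma adjusted p = 0.0258). The 3 calls were lost without KI2 (0.167, 0.0624 and 0.159) or KI3 (0.14, 0.123 and 0.152) and in other single-library tests, and DESeq2 made none of them. Il9r, the IL-9 receptor chain, had a gene-body peak (chr11:32195939-32196509) with 83.5, 55.5 and 59.9 in GFI1-KD, against 95.7, 152 and 134 in GFI1-KI (-0.93 ± 0.19, limma adjusted p = 0.00278). KD1 came near KI1 without crossing it, and the call held without each library.

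The peaks of Il7r and of Il2rg, the common gamma chain itself, changed by -1.34 ± 0.36 and -0.86 ± 0.23 (limma adjusted p = 0.0206 and 0.0198). At the Il7r peak KD1, with 20.3, lay above KI1, so the genotypes overlapped, and DESeq2 called neither peak. Its call was lost without KD2 (0.0703), KD3 (0.106), KI2 (0.167) or KI3 (0.0888), and the Il2rg call without KD3 (0.0781), KI2 (0.165) or KI3 (0.103). The gene-start peak of each, with 156, 129.6 and 142 in GFI1-KD against 141, 148 and 139 in GFI1-KI for Il7r, and 173, 101 and 142 in GFI1-KD against 128, 130.6 and 101 in GFI1-KI for Il2rg, was not called. The IL-2 receptor genes Il2ra and Il2rb had 0 of 18 and 0 of 7 called. Il15ra, the IL-15 receptor chain, had 1 of 7 higher (0.75 ± 0.20, limma adjusted p = 0.0171; lost without KD3, 0.0745, KI2, 0.0899, or KI3, 0.0752).

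Il3ra, the IL-3 receptor chain, and Il5ra, the IL-5 receptor chain of eosinophils, had 1 of 8 and 2 of 12 peaks called. The Il3ra peak at the gene start held 559.6, 496 and 491 in GFI1-KD, against 607, 628 and 629 in GFI1-KI. It did not overlap, but the change was small (-0.27 ± 0.08, limma adjusted p = 0.0353), and it was not called with median-of-ratios scaling, edgeR or DESeq2, or without KD2 (0.0754), KD3 (0.138), KI2 (0.151) or KI3 (0.154). At Il5ra a gene-body peak was lower, with 41.7, 43.2 and 36.6 in GFI1-KD and 64.2, 64.9 and 62.7 in GFI1-KI (-0.65 ± 0.18, limma adjusted p = 0.0241), and a peak 1.32 kb outside the gene was higher (0.58 ± 0.17, limma adjusted p = 0.0341), with KI1 above KD1. Both Il5ra calls were lost without KD3 (0.0864 and 0.203), KI2 (0.103 and 0.139) or KI3 (0.0884 and 0.162), and the higher one also without KD2 (0.0994).

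The receptors of IL-12, IL-23 and IL-17 varied by gene. Il12rb2, the IL-12 receptor chain of type 1 T cells, had 2 of 20 peaks lower, and the stronger (chr6:67337532-67338344) held 77.0, 83.9 and 65.4 in GFI1-KD, against 116, 153 and 136 in GFI1-KI (-0.83 ± 0.16, limma adjusted p = 0.00177). Its partner Il12rb1 had 2 of 6 higher, but the larger change rested on 2 libraries: 187, 46.9 and 182 in KD1 to KD3, against 37.2, 53.5 and 53.6 in GFI1-KI. KD2 was inside the GFI1-KI range, and the call (limma adjusted p = 0.0138) was lost without KD1 (0.0628) or KD3 (0.115), with DESeq2 and with robust variance estimation.

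Il17ra, the shared IL-17 receptor chain, had 2 of 14 peaks higher. The stronger (chr6:120471962-120472264) held 432, 390.0 and 389 in GFI1-KD, against 339, 264 and 219.8 in GFI1-KI (0.58 ± 0.12, limma adjusted p = 0.00431). The pair of strongest Il17ra peaks, with means of 1353 and 1191 over all libraries, was not called (limma adjusted p = 0.754 and 0.654), nor was the strongest of Il17rc, its partner chain (mean 1154, limma adjusted p = 0.757). That Il17rc peak also overlaps Creld1. Of 4 tested Il17rc peaks 1 was higher, with 34.2, 39.5 and 36.6 in GFI1-KD, against 20.3, 19.3 and 15.9 in GFI1-KI. The change was 0.96 ± 0.24 (limma adjusted p = 0.0112), and the call was lost without KI3 (0.0667). Il17rd, a relative that also restrains fibroblast growth factor signalling, had 2 of 16 peaks lower. The peak 13.9 kb outside the gene held 31.0, 9.87 and 13.3 in GFI1-KD, against 34.9, 66.6 and 55.9 in GFI1-KI (-1.60 ± 0.32, limma adjusted p = 0.00273).

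Among the cytokines, the IL-1 family had the most calls, 12 higher and 3 lower of 55 tested peaks (27.3%, beside 10.5% of all tested peaks). The median log2 fold change was 0.22, beside -0.05 over all tested peaks. Il33, an alarm cytokine released from damaged cells, had 4 of 13 peaks higher and none lower. A gene-body peak (chr19:29953864-29954357) held 243, 226 and 219.5 in GFI1-KD, against 146, 96.4 and 93.6 in GFI1-KI. The genotypes did not overlap, and the change was 1.06 ± 0.15 (limma adjusted p = 0.000161), the smallest adjusted p of the cytokines. Gene-body peaks further along held 38.5, 60.5 and 66.5 in GFI1-KD against 20.3, 22.8 and 15.9 in GFI1-KI, and 49.2, 30.9 and 39.9 in GFI1-KD against 21.4, 14.9 and 13.6 in GFI1-KI. They rose by 1.42 ± 0.24 and 1.22 ± 0.26 (limma adjusted p = 0.000715 and 0.0043), and these 3 calls held without each library. The remaining Il33 call was lost without KD3 (limma adjusted p = 0.109) or KI3 (0.166). Within 500 kb, 5 of 100 other tested peaks were higher and 2 lower.

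Il1a and Il1b encode the inflammatory IL-1 cytokines and adjoin each other on chromosome 2. Il1a had 2 of 7 peaks higher, and the peak 9.73 kb outside it (chr2:129319914-129320448) held 218, 262 and 257 in GFI1-KD, against 171, 124 and 115 in GFI1-KI (0.86 ± 0.14, limma adjusted p = 0.000577). The other Il1a call was lost without KD1, KD3, KI2 or KI3 (limma adjusted p = 0.116 to 0.21). Il1b had 3 of 21 peaks higher and 2 lower. The largest fall among the called peaks was in the Il1b gene body (chr2:129368122-129368409), with 13.9, 4.94 and 4.44 in GFI1-KD, against 15.8, 54.3 and 40.8 in GFI1-KI. KD1 and KI1 were close there, and the change was -2.11 ± 0.42 (limma adjusted p = 0.00263). A peak 39.2 kb outside Il1b went the other way and held 172, 151 and 142 in GFI1-KD and 110.3, 85.0 and 87.6 in GFI1-KI (0.72 ± 0.15, limma adjusted p = 0.00336). The other Il1b calls were lost without KI2 (limma adjusted p = 0.105 to 0.149) or KI3 (0.141 to 0.213). The strongest Il1b peak, 25.9 kb outside the gene, stood at 879.5, 876 and 876 in GFI1-KD and 877, 841 and 869 in GFI1-KI (limma adjusted p = 0.858).

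At Il1f9 2 of 6 peaks were higher, and the promoter peak shown above held 102, 60.5 and 59.9 in GFI1-KD, against 42.8, 28.0 and 25.7 in GFI1-KI (1.17 ± 0.23, limma adjusted p = 0.00256). The Il18 promoter peak, which also overlaps the neighbouring Bco2, held 398, 381 and 400.3 in GFI1-KD, against 314, 336 and 261 in GFI1-KI (0.38 ± 0.10, limma adjusted p = 0.0208; lost without KD3, 0.0797, or KI3, 0.183). Another of the 4 tested Il18 peaks was lower (-0.56 ± 0.18, limma adjusted p = 0.0459), a call lost without any 1 of the 6 libraries (0.0731 to 0.127) and with DESeq2 and edgeR. The antagonist Il1rn and the binding protein gene Il18bp had 0 of 9 and 0 of 3 called.

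**Figure D4:**
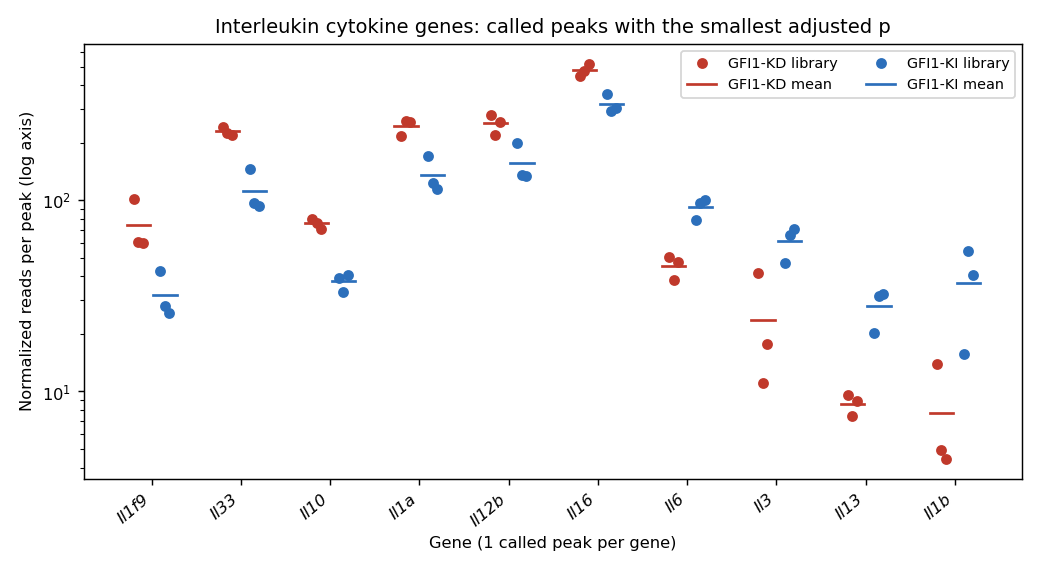
Normalized reads (log axis) in each GFI1-KD library (red, left of each pair) and GFI1-KI library (blue, right), with horizontal lines at the means of 3 libraries, for the called peak with the smallest adjusted p of 10 cytokine genes. Il1f9 to Il16 are higher in GFI1-KD and Il6 to Il1b lower, and at Il1b the lowest GFI1-KI library (15.8) is close to the highest GFI1-KD library (13.9). Only called peaks whose genotypes do not overlap were eligible, so the lack of overlap here follows from the choice.

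Il16 had 6 of 20 peaks higher and 1 lower, all in the gene body. The 2 with the smallest adjusted p held 445, 474 and 519 in GFI1-KD against 363, 294 and 305 in GFI1-KI (chr7:83653661-83654236), and 399, 376 and 436 in GFI1-KD against 295, 254 and 267 in GFI1-KI (chr7:83650675-83651027). Neither overlapped, and they rose by 0.58 ± 0.10 and 0.57 ± 0.10 (limma adjusted p = 0.0008 and 0.00105). The peak at the internal start rose by 0.35 ± 0.09 (limma adjusted p = 0.0153; lost without KD3, KI2 or KI3, 0.0858 to 0.127). The 5 of the higher peaks that lie within 10 kb of each other include the strongest Il16 peak, with 1271, 1061 and 1233 in GFI1-KD and 1079.8, 766 and 813 in GFI1-KI (0.44 ± 0.10, limma adjusted p = 0.00555; 0.0543 without KI2). The Il16 calls whose values are not given here, the lower one among them, were lost without KI2 (limma adjusted p = 0.0637 to 0.163).

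Genes of cytokines made by activated monocytes and dendritic cells were mixed. Il12b, the shared chain of IL-12 and IL-23, had 3 of 17 peaks higher, all outside the gene body. The peak 19.0 kb outside the gene (chr11:44380577-44381104) held 281, 221 and 257 in GFI1-KD, against 199, 136 and 134 in GFI1-KI (0.71 ± 0.14, limma adjusted p = 0.00314). The other Il12b calls were lost without KD3, KI2 or KI3 (limma adjusted p = 0.115 to 0.225) and in further single-library tests. The strongest Il12b peak, with 602, 533 and 591 in GFI1-KD and 542, 433 and 476 in GFI1-KI, was not called (limma adjusted p = 0.0775). Il10 had 2 of 10 peaks higher, and the one in the gene body (chr1:131021594-131021806) held 80.2, 76.5 and 71.0 in GFI1-KD, against 39.4, 33.3 and 40.8 in GFI1-KI (0.99 ± 0.18, limma adjusted p = 0.00135). Il23a, the other chain of IL-23, had 1 of 2 peaks higher (0.41 ± 0.12, limma adjusted p = 0.0268; lost without KD1, 0.074, KD3, 0.0707, KI2, 0.203, or KI3, 0.121).

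Il6, whose product acts through gp130, had 1 of 9 peaks called. It lay 39.1 kb outside the gene (chr5:29973605-29973969) and was lower, with 50.3, 38.3 and 47.7 in GFI1-KD, against 78.8, 97.3 and 100.4 in GFI1-KI (-1.01 ± 0.18, limma adjusted p = 0.00104). The strongest Il6 peak, at the gene start, held 365, 301 and 353 in GFI1-KD and 385, 396 and 390.4 in GFI1-KI and was not called (limma adjusted p = 0.186). Il15, which supports NK and memory T cells, had 1 gene-body peak higher and 1 lower of 17, and Il27, Il34 and Il7 had 0 of 8, 0 of 10 and 0 of 2 called. Both Il15 calls were lost without KD3 (limma adjusted p = 0.0593 and 0.0558) or KI3 (0.054 and 0.103), and the lower one also without KI2 (0.0935). Il12a, which pairs with Il12b, had 1 of 21 higher and 1 lower, and its strongest peak (mean 1067) was not called (limma adjusted p = 0.481). Both Il12a calls were lost without KI2 (limma adjusted p = 0.0616 and 0.225) or KI3 (0.13 and 0.147).

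The type 2 and mast cell cytokine genes on chromosome 11 had 3 of 25 tested peaks called (12%, beside 10.5% of all tested peaks), all lower. The peaks of Il4, Il13, Il5 and Il3 had a median log2 fold change of -0.21. A peak in the Il13 body, near its start (chr11:53633620-53633863), held 9.63, 7.41 and 8.87 in GFI1-KD, against 20.3, 31.6 and 32.5 in GFI1-KI (-1.57 ± 0.31, limma adjusted p = 0.00249). A peak 4.16 kb outside Il3, which encodes a growth factor of mast cells and basophils, held 41.7, 11.1 and 17.7 in GFI1-KD, against 47.3, 65.7 and 71.0 in GFI1-KI (-1.53 ± 0.31, limma adjusted p = 0.00339). KD1 lay nearer to KI1 than to the other GFI1-KD libraries, and DESeq2 did not call the Il3 peak (adjusted p = 0.123). The Il4 peak changed by -0.66 ± 0.16 (limma adjusted p = 0.0101; lost without KI2, 0.0697, or KI3, 0.0687), and Il5 had 0 of 6 called. Distal peaks of the T cell cytokine genes Il17a and Il2 were also lower, with 43.9, 38.3 and 39.9 in GFI1-KD against 73.2, 70.1 and 78.5 in GFI1-KI for Il17a (-0.85 ± 0.18, limma adjusted p = 0.00378). For Il2 the values were 56.7, 39.5 and 48.8 in GFI1-KD and 69.8, 104 and 106 in GFI1-KI (-0.93 ± 0.19, limma adjusted p = 0.0038), although 2 other Il2 peaks were higher and 1 more was lower. Those other Il2 calls were lost without KI2 (limma adjusted p = 0.0727 to 0.211) or KI3 (0.0538 to 0.283).

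Marker genes of other cell types, several of which express these interleukin genes, were counted against the same 10.5% of all tested peaks. In a list of 7 mast cell, basophil and eosinophil genes (Ms4a2, Fcer1a, Cpa3, Mcpt8, Prg2, Epx and Siglecf), 7 of 30 tested peaks were lower and 1 higher (26.7% called), and the summed gene-end peaks held 553 to 601 normalized reads in GFI1-KD and 652 to 679 in GFI1-KI. Cpa3, a mast cell protease, held 37.0 to 43.9 in GFI1-KD and 75.4 to 123 in GFI1-KI. Prg2 held 28.8 to 38.5 in GFI1-KD and 51.8 to 83.3 in GFI1-KI. Epx held 32.1 to 36.4 in GFI1-KD and 40.02 to 52.9 in GFI1-KI. The sums of Cpa3, Prg2 and Epx did not overlap between the genotypes, while those of Mcpt8 and Siglecf did. Mcpt8, a basophil protease, held 245 to 299.6 in GFI1-KD and 232 to 257 in GFI1-KI, and Siglecf, an eosinophil surface protein, 183 to 201 in GFI1-KD and 193 to 215 in GFI1-KI. No gene-end peak was assigned to Ms4a2 and no peak to Fcer1a, both chains of the IgE receptor. No gene-end peak was assigned to Cd8a, Cd3g and Ncr1 of the lymphocyte genes or to Ms4a1 of the B cell genes. In the list of 6 erythroid and megakaryocyte genes, 6 of 28 peaks were lower and 0 higher (21.4%), with sums of 1662 to 1893 in GFI1-KD and 2138 to 2460 in GFI1-KI. In the list of 8 T and NK cell genes, 1 of 57 peaks was lower and 0 higher (1.75%), with sums of 975 to 1156 in GFI1-KD and 1168 to 1180 in GFI1-KI, mostly from Cd3d. B cell genes had 2 of 28 higher and 2 lower (14.3%), with overlapping sums of 143 to 195 in GFI1-KD and 186 to 204 in GFI1-KI. Mature macrophage and dendritic cell genes had 4 of 61 higher and 1 lower (8.20%), also with overlapping sums of 2787 to 3005 in GFI1-KD and 2843 to 2976 in GFI1-KI. The part of such cells in the lower peaks of Il1rl1, Il9r, Il5ra, Il13 and Il3 was not tested. In a sorted population, fewer cells with an open site and a less open site in each cell cannot be told apart.

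The genes through which interleukins signal but which lack the name were counted in the same way. Of 448 tested peaks at 38 of the 39 partner genes, 31 were higher, 12 lower and 405 not called (9.60% called, beside the 10.5% given above). The list holds further receptor chains, adaptors, JAK and STAT genes and inhibitors. Socs3, the inhibitor that shuts off gp130 signalling, had 9 of 22 peaks higher and none lower. Csf2rb, the common beta chain that pairs with Il3ra and Il5ra, had 3 of 12 higher, as Irak2, an IL-1 receptor kinase gene, had 3 of 23 and Nlrp3, an inflammasome sensor needed to release IL-1, had 3 of 17, with none lower. Of the kinases and factors, Jak1 had 2 of 42 lower, Jak2 2 of 19 higher and Stat5a 2 of 6 lower. With median-of-ratios scaling 49 partner peaks were higher and 9 lower, and without KI3 the counts were 11 and 3.

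Calls were also counted by how open the site was, with no test between the classes. Among the peaks with a mean of 10 to 20 normalized reads, 7 of 125 were called, all 7 lower in GFI1-KD, and from 20 to 50 there were 14 higher and 8 lower of 207. From 100 to 250 there were 19 higher and 2 lower of 140, and from 250 upwards 13 higher and 3 lower of 82. The class from 50 to 100 had 20 higher and 14 lower of 144. The shares called in the 5 classes, from weak to strong, were 5.60%, 10.6%, 23.6%, 15.0% and 19.5%, beside 4.88%, 8.84%, 12.2%, 14.5% and 16.9% of all tested peaks. Over all tested peaks the calls in these classes were 558 higher and 1255 lower, 2086 and 2703, 2081 and 1828, 2425 and 1450, and 1370 and 2116. Called changes of at least 2-fold numbered 22 of 698, of which 9 were higher and 13 lower, beside 4843 of 170733 over all tested peaks, 1902 higher and 2941 lower.

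**Figure D5:**
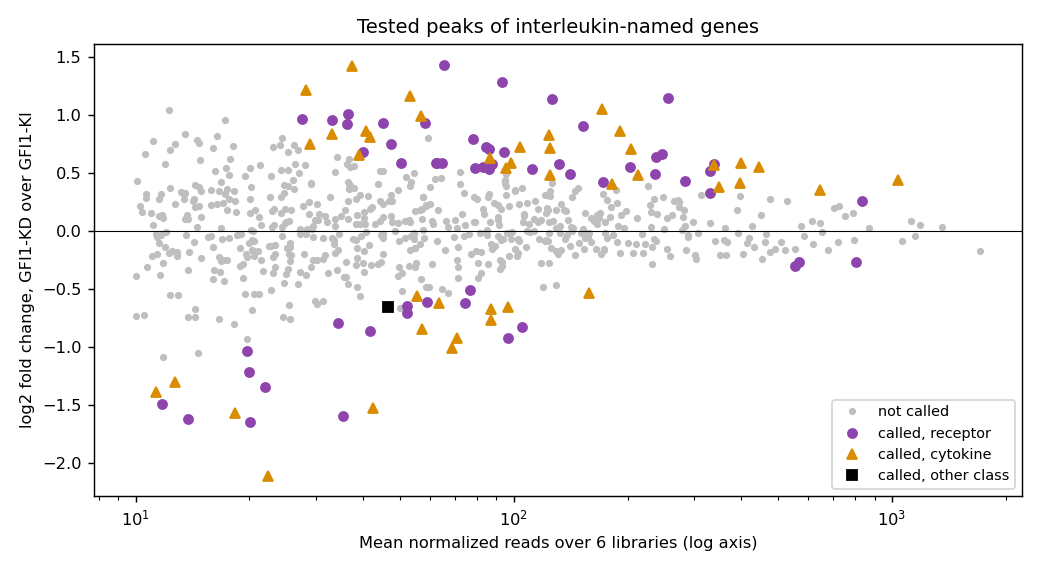
Log2 fold change of GFI1-KD over GFI1-KI against the mean normalized reads over 6 libraries (log axis) for each tested peak of an interleukin-named gene; grey points were not called, and coloured points were called in receptors, cytokines or the other class. The 7 called peaks with a mean from 10 to 20 are all below 0, and 13 of 16 called peaks at 250 or more are above it.

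Calls were counted by position as well, again with no test between positions. Of the peaks inside gene bodies 58 of 380 (15.3%) were called, 35 higher and 23 lower, and of those outside 42 of 318 (13.2%), 31 higher and 11 lower. For receptors the outside peaks were 18 higher and 3 lower, and the inside ones 20 and 16. Within 1 kb of a gene start, 13 of 105 peaks (12.4%) were called, 8 higher and 5 lower; for the 17 genes with no listed start, either gene end was used. Of all tested peaks within 1 kb of any gene end, 8.84% were called. The peak with the highest mean of the set, overlapping Il4i1b, Nup62, a nuclear pore gene, and Atf5, held 1686, 1567 and 1577 in GFI1-KD and 1653, 1882 and 1916 in GFI1-KI and was not called (limma adjusted p = 0.0692).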

How the data were processed

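ATAC-seq was done on 6 libraries, 3 GFI1-KD and 3 GFI1-KI. The authors deposited 1 table of normalized signal per peak, on mm10; the tools listed are MACS2, DiffBind, BWA, Trim Galore, HOMER, ChIPseeker, Picard and SAMtools, per the submitters' processing notes, with neither settings nor roles. Columns headed WT were read as GFI1-KI, which the series title calls wildtype. The values were whole multiples of 1 step per library (100% within 0.01 of a whole read), so reads were recovered for edgeR 4.0.16 and DESeq2 1.42.0 as alternatives. Chromosome codes in the table were read in alphabetical order, which put more peaks at gene ends than numeric order did (15.98% against 2.62%).

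Peaks with a mean of at least 10 were tested with limma 3.58.1 (trend, log2(value + 1)) in R 4.3.3, without a covariate, over all peaks; SE are limma's. Gene positions are RefSeq's for GRCm38.p6; 3 peaks belong to 2 members and 17 overlap another gene. Named peaks are, per class, the 10 called peaks with the smallest adjusted p whose genotypes do not overlap, genes with at least 2 calls, the 5 strongest peaks, and the strongest peaks of receptors and cytokines of these cells; other single-call genes were named after their values were seen. Members and lists were chosen with earlier results of these data known, and Il4i1b and Il1f5 were placed in their class after the files were read. In simulated data the test gave the right direction for nearly all known changes of at least 2-fold. Smaller changes, changes at weak peaks and a deviating library were not simulated, so it does not bear on such calls. Intervals are not given, since reads are not independent molecules; floors cover counting error only.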

Additional observations from a re-analysis of the deposited data

How the results depend on the processing

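No called interleukin peak changed direction under any alternative run. Of the 100 calls, 29 held without each library in turn and 71 were lost in at least 1 such test: 63 without KI2, 65 without KI3, 48 without KD3, 35 without KD2, 24 without KD1 and 6 without KI1. DESeq2 lost 32 of them, edgeR 2, median-of-ratios scaling 5 and robust variance estimation 3. The DESeq2 number leaves out called peaks to which DESeq2 gave no adjusted p, among them peaks of Il1b, Il2 and Il1rl1. DESeq2 did not call those peaks either, so the number of calls it did not make is larger. With DESeq2 the lower calls numbered 13 (receptors 4, cytokines 9, partner genes 3), and at a mean of at least 50 they numbered 18 (receptors 10, cytokines 8). The peaks called lower among all tested peaks numbered 3595 and 5956 under these settings. Fewer peaks are tested at that minimum. Inside gene bodies only, 35 peaks were higher (receptors 20, cytokines 15) and 6 cytokine peaks lower, and with assignment within 10 kb 25 receptor peaks were higher; fewer peaks are counted in both. Higher partner peaks numbered 54 with edgeR, and 49 with equal totals or median-of-ratios scaling. The cause of the DESeq2, edgeR and scaling differences was not tested.

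Leaving out 1 library gave 22 to 87 higher and 10 to 39 lower interleukin peaks. Receptors had 10 to 45 higher and 4 to 24 lower, cytokines 12 to 41 and 6 to 13, and partner genes 11 to 47 and 2 to 20. The peaks called higher among all tested peaks numbered 3604 to 11950, and the peaks called lower among all tested peaks 2940 to 10179. Scaling moved the median log2 fold change of all peaks to -0.01, against -0.05, under median-of-ratios. With a replicate block 68 interleukin peaks were higher and 32 lower, and 6 calls were lost. Same-numbered libraries had correlations of -0.02, -0.04 and 0.06 of their deviations from the group means, so the numbers were not taken as pairs. The size of change that 3 libraries a group could detect at weak peaks was not measured.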
